A study of Arabidopsis thaliana with 24 samples.

Results

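The phosphate starvation genes described here are 9 Arabidopsis thaliana loci, given by locus: the phosphatase genes PS2 (AT1G73010), PECP1 (AT1G17710) and PAP17 (AT3G17790), the SPX-domain genes SPX1 (AT5G20150) and SPX3 (AT2G45130), the phosphate transporter gene PHT1;4 (AT2G38940), and the lipid genes SQD1 (AT4G33030), SQD2 (AT5G01220) and MGD3 (AT2G11810). They were picked with levels on these arrays already known, so their levels are given as a description. Of the 9, 8 have a probe set of their own, among 21375 genes of the array that do, and the probe set for PHT1;4 also names PHT1;7 and was left out of every count. The levels come from 24 Affymetrix arrays of wild-type Col-0 material in 4 groups of 6, kept in the dark on nutrient agar in canisters. These were undifferentiated cultured cells derived from hypocotyls, flown (flight cells) or held at unit gravity (ground cells), and etiolated seedlings, flown (flight seedlings) or held at unit gravity (ground seedlings). All groups are labelled 7 days old, and the flown dishes spent 12 days and 21 hours in orbit before RNAlater was added there; the sources used here do not reconcile the label with that time. Cells in culture have none of the organs of a seedling, and the flight samples of a material all come from a single mission.

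Plants short of phosphate switch on a shared set of genes under transcription factors of the PHR1 family. SPX proteins bind these factors and hold them back while phosphate is ample, and several SPX genes are themselves switched on by shortage. The set includes phosphatases that free phosphate from organic compounds, transporters that take it up, and enzymes that replace membrane phospholipids with galactolipids and sulpholipid.

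Background differed widely between the materials and sets what can be said of every gene below. For an array it is the level that 95% of its 27 bacterial control probe sets do not exceed. On the log2(intensity + 16) scale, used for all levels here, it averaged 9.57 in flight cells and 9.89 in ground cells, against 6.89 in flight seedlings and 7.62 in ground seedlings. All 27 controls were higher in cells than in seedlings, by a median of 1.82 in flight and 1.97 on the ground. The spiked cre control was also higher in cells, at 19.81 in flight and 20.18 on the ground, against 17.02 and 17.88 in seedlings. The part of this shift in the differences between materials was not tested. The median correlation between arrays of a group was 0.304 in flight cells, 0.315 in ground cells, 0.890 in flight seedlings and 0.813 in ground seedlings. Flight cells replicate 5 stood apart, with 76.7% of probe sets above background, against 9.94% to 30.3% on the other flight cell arrays. Signs of RNA quality also moved with the material: the difference between the 3 prime and 5 prime actin control probe sets averaged 0.92 in flight cells and -0.36 in ground cells, against 3.21 in flight seedlings and 2.76 in ground seedlings. For GAPDH it was 1.83 and 1.44 in these cells, against 2.81 and 2.67 in these seedlings. Their part in the differences between materials was not tested. Of 14 marker genes with a probe set of their own, 0 were above background on at least 4 arrays in flight cells or in ground cells, against 8 in flight seedlings and 6 in ground seedlings. Of all probe sets, 8.93% in flight cells and 7.84% in ground cells were so measured, against 58.5% in flight seedlings and 44.7% in ground seedlings. The callus markers LBD16, LBD29 and WIND1 were above background on at most 1 array of either cell group, so their detection does not bear out the label of the cells. By limma (adjusted p under 0.05), 6 of the 14 markers were higher in cells than in seedlings in flight and 2 lower, beside 32.9% and 12.5% of all probe sets. The 6 were 1 of 3 callus markers (3.64), the 2 root markers, the dark-grown shoot marker, 1 of 2 dry seed markers and 1 of 3 vascular markers. The other 2 callus markers had negative differences, the lowest -1.51, and were not called. The 2 called lower were shoot epidermis markers. On the ground 1 of the 14 was higher and 1 lower, beside 27.6% and 10.5%. Among the seedling markers, the epidermal gene FDH was above background on 6 flight and 5 ground seedling arrays, and the dark-grown shoot gene PORA on 4 flight and 0 ground seedling arrays.

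PS2, a gene for a phosphatase that acts on pyrophosphate, had the largest difference between the materials among the 8 genes. Its level in flight cells was 8.14 at the lowest, 9.94 at the median and 11.02 at the highest. In ground cells it was 9.31, 11.14 and 12.03. In flight seedlings it was 4.31, 6.05 and 7.12, and in ground seedlings 4.59, 5.77 and 6.56. Every cell array lay above every seedling array, as for 8.44% of all probe sets in flight and 4.95% on the ground, while flight and ground overlapped within each material. In intensity units the medians were 967 in flight cells and 2258 in ground cells, against 58.5 in flight seedlings and 38.8 in ground seedlings. PS2 was above background on 4 flight cell and 5 ground cell arrays, against 2 flight seedling arrays and 0 ground seedling arrays. Flight cells replicate 5, with its low background, was 1 of the 4, and 3 of the other 5 flight cell arrays were above. Its mean difference, cells minus seedlings, was 3.84 ± 0.63 in flight and 5.27 ± 0.63 on the ground (SE, n = 6 per group). PS2 was below background on every ground seedling array. With those arrays raised to their background, the mean of ground cells was 9.53-fold that of ground seedlings. This bound leaves out the SE of the difference and the shift in background between the materials. The largest difference among the 27 bacterial controls was 3.82 in flight, close to that of PS2, and 3.01 on the ground, below it. In bulk RNA, fewer cells that express a gene and less of its RNA per cell cannot be told apart.

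PECP1, a phosphatase gene whose product releases phosphate from phosphoethanolamine and phosphocholine, was close to or below background throughout. Its lowest, median and highest levels were 6.71, 8.42 and 9.37 in flight cells and 7.39, 8.75 and 10.41 in ground cells. In flight seedlings they were 4.88, 6.52 and 7.33, and in ground seedlings 4.68, 5.70 and 8.24. The ranges of cells and seedlings overlapped. Only 1 array of each cell group was above background, against 3 flight seedling arrays and 1 ground seedling array, so no fold is given. The mean difference, cells minus seedlings, was 2.07 in flight, which 12 of the 27 bacterial controls exceeded, and 2.70 on the ground, which 2 of them exceeded.

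PAP17, a purple acid phosphatase gene, was measured in seedlings and not in cells. In flight seedlings its lowest, median and highest levels were 8.26, 8.90 and 9.59, and in ground seedlings 8.75, 9.06 and 9.94, above background on all 6 arrays of each group. In flight cells they were 5.72, 7.57 and 9.16 and in ground cells 5.88, 7.50 and 9.16, above background on 1 and 0 arrays. Cells minus seedlings was -1.48 in flight and -1.80 on the ground. The mean background of the cell arrays lay above the mean level of PAP17 in seedlings, so no fold is given.

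**Figure D1:**
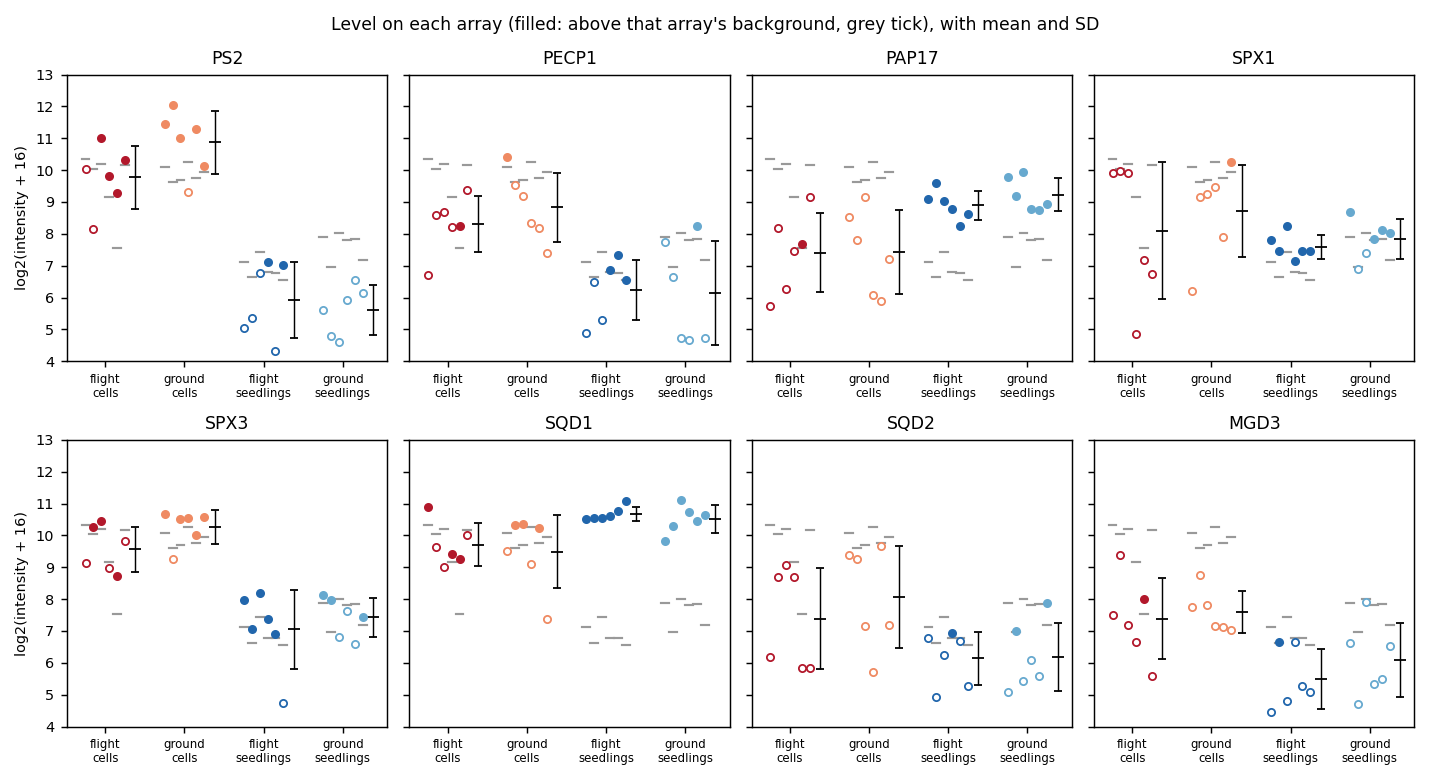
Level of each of the 8 genes on each array, as log2(intensity + 16), in flight cells, ground cells, flight seedlings and ground seedlings. Each point is an array (filled where it is above that array's background, the grey tick), and the black bar is the mean and SD over 6 arrays; PS2 and SPX3 are the genes whose cell and seedling points do not overlap, and the grey ticks lie higher in cells (9.57 and 9.89 on average) than in seedlings (6.89 and 7.62).

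The SPX genes encode the proteins that bind the PHR1 family, and the 2 members differed in how clearly they were measured. SPX3 levels were 8.73 at the lowest, 9.48 at the median and 10.44 at the highest in flight cells, and 9.26, 10.52 and 10.67 in ground cells. In seedlings they were 4.75, 7.23 and 8.18 in flight and 6.59, 7.52 and 8.13 on the ground. As for PS2, every cell array lay above every seedling array. SPX3 was above background on 3 flight cell and 5 ground cell arrays, and on 5 flight seedling and 3 ground seedling arrays. Cells minus seedlings was 2.51 ± 0.60 in flight and 2.84 ± 0.60 on the ground (SE, n = 6 per group). Of the 27 bacterial controls, 7 differed by more than SPX3 in flight and 1 did so on the ground.

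SPX1 was measured in seedlings, at 7.15, 7.45 and 8.25 (lowest, median and highest) in flight, above background on all 6 arrays. On the ground it was at 6.89, 7.93 and 8.70, above background on 4. In cells it ranged from 4.87 to 9.96 in flight, with a median of 8.54, and from 6.22 to 10.27 on the ground, with a median of 9.20, and only 1 of these 12 cell arrays was above background. The cell and seedling ranges overlapped. Its cells minus seedlings difference of 0.50 in flight turned to -0.32 after quantile normalization of the arrays, and its ground difference was 0.88 before and 0.20 after.

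The lipid genes make the substitutes for phospholipids. SQD1 encodes the enzyme that makes UDP-sulphoquinovose, the head group donor of sulpholipid, and was the lipid gene above background on all 12 seedling arrays. Its lowest, median and highest levels were 10.50, 10.58 and 11.07 in flight seedlings and 9.83, 10.55 and 11.11 in ground seedlings. In cells they were 9.01, 9.54 and 10.88 in flight and 7.39, 9.87 and 10.37 on the ground, with 3 of 6 arrays above background in each group. Cells minus seedlings was -0.96 in flight and -1.03 on the ground, with overlapping ranges.

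SQD2 encodes the transferase that completes sulpholipid. Its lowest, median and highest levels were 5.83, 7.44 and 9.08 in flight cells and 5.72, 8.22 and 9.68 in ground cells. They were 4.94, 6.46 and 6.92 in flight seedlings and 5.07, 5.84 and 7.87 in ground seedlings. None of the 12 cell arrays was above background, and 1 flight seedling and 2 ground seedling arrays were.

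MGD3 encodes a galactolipid synthase of the outer chloroplast envelope. Its lowest, median and highest levels were 5.60, 7.35 and 9.37 in flight cells and 7.04, 7.45 and 8.75 in ground cells. They were 4.45, 5.17 and 6.65 in flight seedlings and 4.69, 6.01 and 7.90 in ground seedlings. Only 1 flight cell array and 1 flight seedling array were above background. SQD2 (1.25 in flight and 1.88 on the ground) and MGD3 (1.90 and 1.51) differed between the materials by amounts within the spread of the 27 controls, which was 0.70 to 3.82 in flight and 0.06 to 3.01 on the ground.

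PHT1;4 encodes a high-affinity phosphate transporter. The probe set it shares with PHT1;7 averaged 7.11 ± 1.19 in flight cells and 6.90 ± 1.02 in ground cells, and 4.71 ± 0.46 in flight seedlings against 6.47 ± 1.14 in ground seedlings (SD, n = 6 each). It was above background on 1 flight cell and 1 ground seedling array and on none of the others, so none of the groups has a measured level. The authors' deposited table gives this probe set a log2 fold change, flight over ground, of -2.78 in seedlings, with p = 0.0215 and q = 0.386. In the fit here the difference was -1.76. A probe set labelled ATPT2 has the PHT1;4 locus as 1 of its disagreeing identifiers and was left out. It differed by -0.23 between flight and ground seedlings, above background on 2 flight seedling arrays and 1 ground seedling array.

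In the order of group means, PS2, PECP1, SPX1, SPX3, SQD2 and MGD3 were highest in ground cells, followed by flight cells. PAP17 was highest in ground seedlings and SQD1 in flight seedlings. Neighbours in this order overlapped for all 8 genes, except flight cells against the higher seedling group for PS2 and SPX3. Of the 48 possible pairs of gene and array in each group, 13 were above background in flight cells and 15 in ground cells, against 30 in flight seedlings and 22 in ground seedlings. These are 27.1%, 31.2%, 62.5% and 45.8% of the pairs, beside 26.5%, 18.8%, 62.2% and 50.0% of all probe sets on an average array of the same groups. Flight cells replicate 5 gave 6 of the 13, and the other 5 flight cell arrays gave 1 or 2 each.

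**Figure D2:**
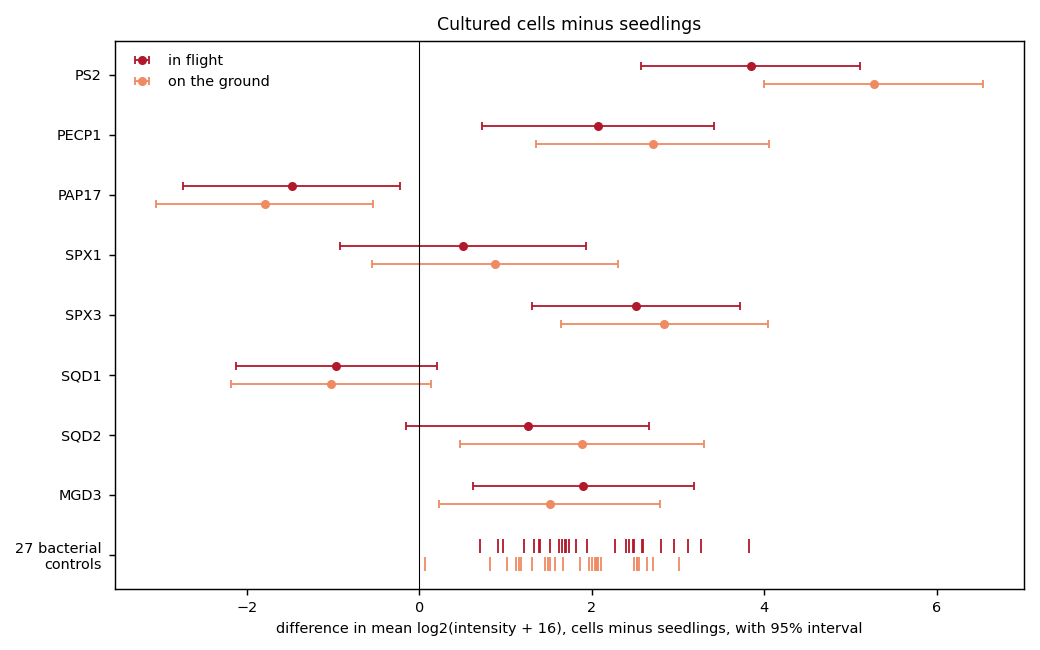
Difference in mean log2(intensity + 16), cells minus seedlings, for the 8 genes in flight and on the ground, with 95% intervals from the fit over 24 arrays; the bottom row marks the same difference for each of 27 bacterial controls. PS2 lies beside the highest control in flight (3.84 against 3.82) and beyond all controls on the ground (5.27 against 3.01), PAP17 (-1.48 and -1.80) and SQD1 (-0.96 and -1.03) lie below them, and the other genes lie among them, apart from SPX1 in flight (0.50).

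Between the materials, 4 of the 8 genes were called higher in cells than in seedlings in flight and 1 lower (limma, adjusted p under 0.05 over all probe sets). The same call was made for 32.9% (higher) and 12.5% (lower) of all probe sets. On the ground 4 were called higher and 1 lower, where 27.6% and 10.5% of all probe sets were called. PS2, PECP1 and SPX3 were called higher in flight and on the ground, MGD3 in flight only and SQD2 on the ground only. Of those called higher, PS2 in flight, and PS2 and SPX3 on the ground, were above background on at least 4 cell arrays. In flight 2.08% of all probe sets were both called higher and so measured, and on the ground 1.8%. Since the genes were picked with these values known, the counts are a description and no test. The median difference over the 8 genes was 1.58 in flight and 1.70 on the ground, beside medians over all probe sets of 0.75 and 0.77. Relative to those medians PS2 differed by 3.09 in flight and 4.50 on the ground, and SPX3 by 1.76 and 2.07. Levels were not rescaled to the spiked cre control, which was higher in cells than in seedlings. Quantile normalization brought the medians over all probe sets to 0.07 and 0.14, and left PS2 at 3.49 and 5.03, SPX3 at 1.88 and 2.66, and PAP17 at -2.41 and -2.48. Canisters B and A held cells only and seedlings only, so canister and material cannot be told apart there. Canister G held 2 arrays of each cell group and 1 of each seedling group, and in it PS2 differed by 2.78 in flight and 4.56 on the ground, and SPX3 by 4.52 and 2.88. The flight values rest on a single seedling array, flight seedlings replicate 6, on which SPX3 was at 4.75, the lowest of its group. Without flight cells replicate 5 the flight differences were 3.94 for PS2 and 2.68 for SPX3.

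Flight was then set against ground within each material. In cells, 0 of the 8 genes were called (limma, adjusted p under 0.05), where 0.0352% of all probe sets were, and none had an unadjusted p under 0.05. PS2 was lower in flight cells than in ground cells by a mean of 1.10 on the log2 scale, with a 95% interval of the difference from -2.71 to 0.52, and 5 of 6 flight arrays lay below the ground mean. The difference was -0.997 without flight cells replicate 5 and -1.19 within canister B. SPX3 differed by -0.70 (-2.32 to 0.91), also with 5 of 6 flight arrays below the ground mean. The other 6 genes differed by -0.67 to 0.22. Within canister B these 6 ran from -1.31 to 0.29: PECP1 was at -1.31 in place of -0.53 and PAP17 at -0.98 in place of -0.03, and the sign turned for SPX1 (0.14), SQD2 (0.29) and SQD1 (-0.08). The fit in cells gave all 8 genes the same SE of 0.82, so these intervals and p-values do not reflect the spread of each gene by itself. The SDs in flight and ground cells were 0.71 and 0.54 for SPX3, against 2.15 and 1.44 for SPX1. The median over the 8 genes was -0.57, beside 0.01 over all probe sets, and it was -0.40 without flight cells replicate 5 and -0.37 within canister B. The actin 3 prime minus 5 prime difference averaged 0.92 in flight cells and -0.36 in ground cells. Its exact two-sided permutation p was 0.0108, and 0.0519 after adjustment over 12 tests of array measures. Ground cells replicate 4, at -2.71, was the lowest array. For GAPDH the averages were 1.83 in flight cells and 1.44 in ground cells (exact p = 0.160), and for ubiquitin 1.87 and 1.90 (exact p = 0.911). The part of RNA quality in these flight differences was not tested.

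In seedlings, 0 of the 8 genes were called either, where 0.0176% of all probe sets were, and none had an unadjusted p under 0.05. The differences ran from -0.61 for MGD3 to 0.33 for PS2, both dim in seedlings. Among the genes measured in both seedling groups, PAP17 differed by -0.34 (95% interval -1.03 to 0.36), SPX1 by -0.24 (-0.96 to 0.48) and SQD1 by 0.16 (-0.43 to 0.76). The median over the 8 genes was -0.14, beside -0.02 over all probe sets, and -0.04 within canister A. The ranges of flight and ground overlapped for every one of the 8 genes in both materials, where they did not for 0.268% of all probe sets in cells and 0.655% in seedlings. More probe sets were above background on flight seedling arrays (62.2% ± 3.49) than on ground seedling arrays (50.0% ± 8.66; SD, n = 6 each), with an exact two-sided permutation p = 0.0173 and 0.0519 after adjustment over the 12 tests. The spiked cre control averaged 17.02 in flight seedlings and 17.88 in ground seedlings (exact p = 0.00649, adjusted 0.0519), and background 6.89 and 7.62 (exact p = 0.0152, adjusted 0.0519). Their part in the seedling differences was not tested.

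Whether flight minus ground differed between cells and seedlings was tested in a fit over all 24 arrays. It called 0 of the 8 genes and 0.0% of all probe sets, and 0 of the 8 had an unadjusted p under 0.05. The difference for PS2 was -1.43, with a 95% interval from -3.22 to 0.37. The authors' deposited tables of flight against ground gave the same sign in 15 of 16 pairs of gene and material, with q between 0.510 and 0.926. These tables compare the same groups, so the shared signs are no independent check.

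**Figure D3:**
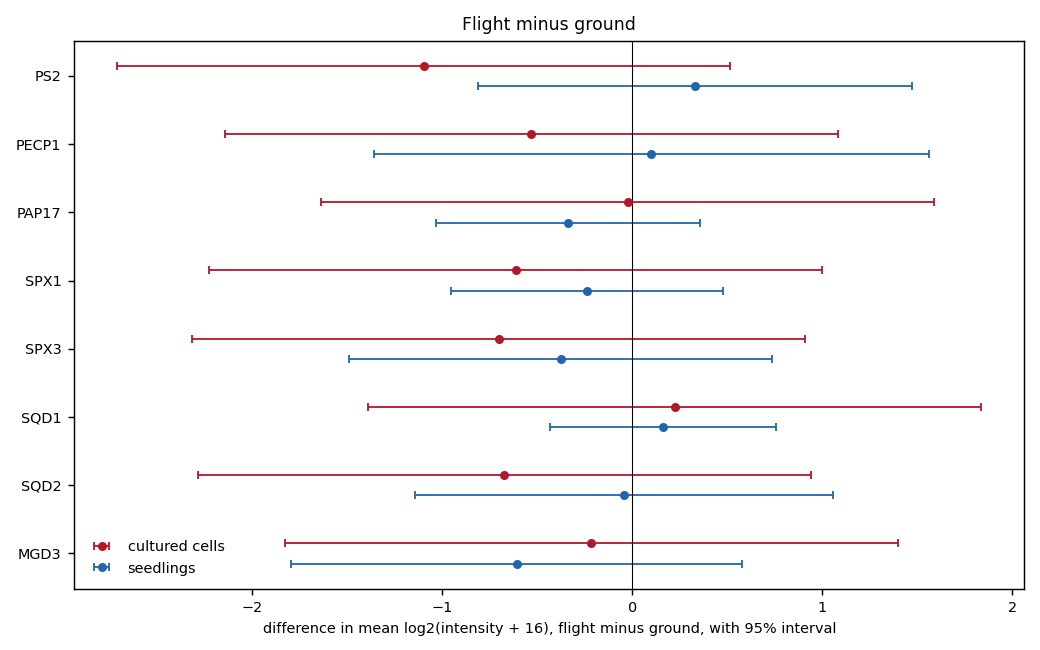
Difference in mean log2(intensity + 16), flight minus ground, for the 8 genes in cultured cells and in seedlings, with 95% intervals from the fit within each material. All 16 intervals include 0; they are wider in cells, where PS2 differed by -1.10 and SPX3 by -0.70, than for the genes measured in seedlings, such as SQD1 at 0.16.

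A list of 67 other genes of the phosphate pathway was set beside these, of which 59 have a probe set of their own. Like the array as a whole, they were measured less in cells than in seedlings: 5 in flight cells and 4 in ground cells were above background on at least 4 arrays, against 37 in flight seedlings and 29 in ground seedlings. Over all probe sets the shares were 8.93% and 7.84% in these cells, against 58.5% and 44.7% in these seedlings. The mean level of the list per array ran from 8.08 to 8.47 in flight cells and from 7.86 to 8.45 in ground cells, against 7.50 to 7.78 in flight seedlings and 7.48 to 7.95 in ground seedlings.

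Between flight and ground, 0 of the 59 were called in cells and 0 in seedlings by limma, with 6 and 4 at an unadjusted p under 0.05, as were 5.76% and 8.01% of all probe sets. In cells PHO2, a ubiquitin-conjugating enzyme gene that limits phosphate uptake, averaged 9.52 in flight and 7.18 on the ground, with an adjusted p = 0.758. The purple acid phosphatase gene PAP1 averaged 6.95 in flight and 8.77 on the ground, with an adjusted p = 0.852. PHO2 and PAP1 were each above background on 2 flight cell arrays and 1 ground cell array. In seedlings UGP3, which supplies UDP-glucose for sulpholipid, averaged 7.87 ± 0.38 in flight seedlings and 6.24 ± 0.67 in ground seedlings (SD, n = 6 each), with an adjusted p = 0.246. It was above background on 5 flight seedling arrays and 1 ground seedling array. PPCK1, a kinase gene of phosphoenolpyruvate carboxylase, averaged 5.71 in flight and 6.92 on the ground, with an adjusted p = 0.583. It was above background on 0 flight seedling and 2 ground seedling arrays. The difference between both flight effects was called for 0 of the 59, with 4 at an unadjusted p under 0.05, beside 6.63% of all probe sets; it was -2.70 for UGP3 (adjusted p = 0.509) and 1.93 for PHO2 (adjusted p = 0.723).

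Between the materials in flight, 14 of the 59 were higher in cells and 3 lower, beside 32.9% and 12.5% of all probe sets. The 2 of the 14 that were above background on at least 4 flight cell arrays, beside 2.08% of all probe sets, encode transcription factors. ZAT6 averaged 10.71 in flight cells against 7.44 in flight seedlings (adjusted p = 0.000143), and WRKY75, named after its values were seen, averaged 11.41 against 9.74 (adjusted p = 0.0286). On the ground limma called neither: ZAT6 differed by 1.38 (adjusted p = 0.087) and WRKY75 by 0.70 (adjusted p = 0.384). ZAT6 was above background on 0 ground cell arrays and WRKY75 on 6. MYB62 (3.62), the transporter PHT1;6 (3.06), the ribonuclease RNS1 (2.67), the phosphatidate phosphohydrolase PAH1 (2.66) and the acid phosphatase PAP22 (2.28) were also called higher in flight cells, and each was above background on at most 2 of those 6 arrays. The 3 lower genes were above background on all 6 flight seedling arrays. The acid phosphatase gene PAP12 averaged 6.84 in flight cells against 10.47 in flight seedlings, and NLA, a ubiquitin ligase gene that acts on phosphate transporters, 7.32 against 10.11. The inositol pyrophosphate kinase gene VIH1 averaged 7.56 against 9.24, and this seedling mean lay below the mean background of flight cell arrays (9.57). Without flight cells replicate 5, 15 of the 59 were called in place of 17.

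On the ground, 17 of the 59 were called higher in cells and 7 lower, beside 27.6% and 10.5% of all probe sets. None of the 17 was above background on at least 4 ground cell arrays, where 1.8% of all probe sets were both called higher and so measured. They included PAP22 (3.92), the transcription factor WRKY42 (3.37), the phosphodiesterase GDPD6 (2.99), RNS1 (2.49), the transporter PHT1;9 (2.42) and MYB62 (2.31). All 7 lower genes were above background on the 6 ground seedling arrays. PAP12 averaged 7.34 in ground cells against 9.96 in ground seedlings, and NLA 8.08 against 10.40. With the ground cell arrays raised to their background, PAP12 was 1.05-fold and NLA 1.42-fold lower in cells. PHO1, which exports phosphate to the xylem, averaged 7.33 against 9.59, and PHR1, the transcription factor at the head of the response, 8.54 against 10.50. GDPD1 (-1.96), PAH2 (-1.96) and PHT3;1, a mitochondrial phosphate carrier gene named after its values were seen (-1.80), were the others. The mean background of ground cell arrays (9.89) lay above the ground seedling means of PHO1 and PAH2 (9.65), so no fold is given for them. The GDPD1 call was lost under 7 of 20 alternatives.

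By role, the ground calls were 3 higher and 2 lower of 16 signalling genes, 0 of 5 root sensing genes, 6 higher and 2 lower of 13 transport genes, 4 higher and 1 lower of 13 phosphatase, nuclease and metabolic genes, and 4 higher and 2 lower of 12 lipid genes. The median difference over the 59 was 0.55 in flight and 0.67 on the ground, beside 0.75 and 0.77 over all probe sets. After quantile normalization the flight calls were 4 higher and 4 lower, and the ground calls 3 higher and 6 lower.

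**Figure D4:**
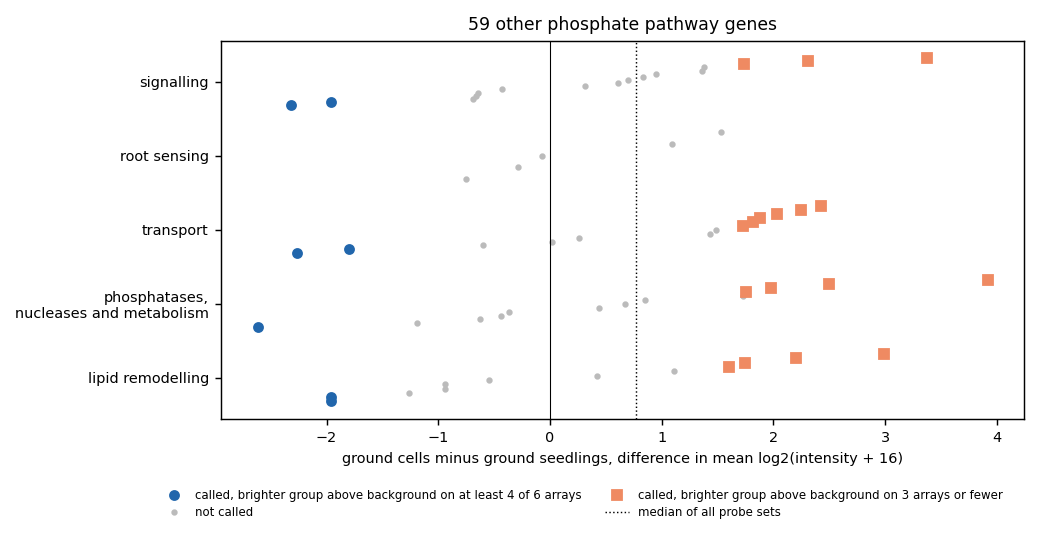
Difference in mean log2(intensity + 16), ground cells minus ground seedlings, for 59 other phosphate pathway genes by role; the dotted line is the median of all probe sets (0.77). The 17 genes called higher are drawn as squares, since none was above background on at least 4 ground cell arrays, and the 7 called lower as large circles, since all were above background in ground seedlings. For PHO1 and PAH2 the ground seedling mean lay below the mean background of ground cell arrays.

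The 8 genes did not follow each other closely. Over the 24 arrays the Pearson correlation of the 28 pairs of genes had a median of 0.15 and ran from -0.68 to 0.77, and with each group's mean subtracted the median was 0.02, with a range of -0.36 to 0.34. The arrays share the difference in background between the materials, and many of the values lie below background. The gene most like the mean of the 8 over all 24 arrays was GATA5, a GATA transcription factor gene (r = 0.92), followed by AT5G60720 (0.87), AT5G52680 (0.85), AT3G51570 (0.85) and AT5G20860 (0.84). With group means subtracted, AT3G22540 and GATA5 came first (both 0.78), then MOS1 (0.76), AT1G06980 (0.74) and AT3G02860 (0.74). GATA5 was above background on 2 flight cell, 2 ground cell, 5 flight seedling and 3 ground seedling arrays.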

How the data were processed

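Per the labels' protocols, RNeasy total RNA was amplified by Ovation Pico WTA before biotin labelling (Encore). The deposited array values are intensity on a linear scale. Per the submitters' processing notes they come from Affymetrix Expression Console and MAS5, with a mean of 500 on every array after trimming 2% at each end. The authors' deposited tables give a log2 fold change, p-value and q-value for 6 biological replicas per group, per the file headers and description, and their test is not given in the sources used here. Whether a group's dishes came from separate cultures is not in the labels, so the p-values cover only the spread among these arrays, which may be technical. In the fit of flight against ground cells, that spread was the same for every gene reported here.

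Levels are log2(intensity + 16), which draws differences of dim probe sets toward 0. All 22746 non-control probe sets were fitted in R 4.3.3 by limma 3.58.1 (lmFit and eBayes). Tests were two-sided, and p-values were adjusted by the Benjamini-Hochberg method across the whole table (threshold 0.05). Flight against ground was fitted on the 12 arrays of each material, and cells against seedlings and the difference of flight effects on all 24. Array measures were compared by exact permutation tests with scipy 1.17.1. The fits were tested on simulated data.

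Each gene has its probe set with the highest mean; probe sets with several genes (819) or disagreeing identifiers (413) were left out, and 21379 name 1 gene. A gene was taken as measured in a group where at least 4 of 6 arrays lay above background, a percentile chosen after the data were seen. A bound is the mean of the brighter group against that of the dimmer group raised to background. It leaves out the spread of the brighter group and any shift of levels between the materials. Named list genes are up to 6 called in each direction, or the 2 with the smallest p where none was called. The genes and lists were chosen with earlier results of these data known. Groups follow the titles, with replicates numbered by canister position, and the number of arrays limits precision. No coordinates or sequences are given. Alternatives were the pseudocount, normalization, filters, prior, canister, replicate block, arrays fitted and each array left out.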

Additional observations from a re-analysis of the deposited data

Results flagged for a closer look

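Values stood apart within their group of 6 arrays, in 3 of 56 groups examined by Dixon's criterion, where chance gives about 5%. SPX3 on flight seedlings replicate 6 was 4.75, far below the other 5 arrays, and without this array SPX3 differed between flight and ground seedlings by 0.08, in place of -0.38 with it. The share of probe sets above background on flight cells replicate 5 was 76.7%. The difference between the 3 prime and 5 prime actin control probe sets on ground cells replicate 4 was -2.71.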

How the results depend on the processing

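Under all alternatives run, 0 pathway genes were called between flight and ground in either material or for the difference of flight effects; the filters on dim probe sets kept as few as 5 of the 59 genes in cells and 32 in seedlings. The called pathway genes, cells minus seedlings, fell from the reported 17 in flight and 24 on the ground as follows: quantile normalization gave 8 and 9, the brighter part of the probe sets 6 and 8 (32 of the 59 genes kept), probe sets above background on at least 6 arrays (chosen after the data were seen) 7 and 10 (41 kept), and canister G alone, with 3 arrays a comparison in place of 12, 0 and 0. Leaving out each array gave 12 to 16 and 16 to 23. The median over the phosphate starvation genes, cells minus seedlings, was 0.66 in flight and 0.93 on the ground after quantile normalization, 0.50 and 0.88 in the brighter part (5 genes left), and 1.15 and 0.81 in canister G; leaving out each array gave 1.25 to 1.77 and 1.46 to 1.98. For flight minus ground the medians ran from -0.75 to -0.29 in cells and from -0.22 to 0.06 in seedlings with an array left out. The filters test fewer genes and canister G fewer arrays; the cause of the other shifts was not tested. With the replicate block 0 pathway genes were called and the medians stayed -0.57 in cells and -0.14 in seedlings. Same-numbered flight and ground arrays share the canister letter and position given in their titles. They correlated by -0.05 to 0.10 in cells and -0.02 to 0.06 in seedlings, and 3 of 6 in cells and 2 of 6 in seedlings correlated best with their own number. Whether they also share a culture is not in the labels. Most phosphate starvation genes were below background in cells, which limits every comparison across materials.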

Other observations

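Genes of other nutrient responses were set beside these. Of 9 sulphate starvation genes, 4 were called higher in cells and 1 lower, both in flight (beside 32.9% and 12.5% of all probe sets) and on the ground (27.6% and 10.5%). The glutathione-degrading enzyme gene GGCT2;1 averaged 8.10 in flight cells against 5.23 in flight seedlings and 9.13 in ground cells against 5.00 in ground seedlings, with non-overlapping ranges, and was above background on 2 of 6 arrays in each cell group. SDI1, a sulphur deficiency gene, averaged 9.26 in flight cells against 6.44 in flight seedlings (adjusted p = 0.000608) and was above background on 4 flight cell arrays, 3 without replicate 5. On the ground it averaged 9.16 in cells against 6.18 in seedlings and was above background on 1 cell array. LSU1 and the sulphate transporter gene SULTR1;1 were the other genes called higher, and their ground calls were lost under 5 of 19 and 6 of 18 alternatives. The transporter gene SULTR1;2 was called lower, at 7.66 in flight cells against 9.12 in flight seedlings and 8.19 in ground cells against 9.88 in ground seedlings; this call was lost under 12 of 20 alternatives in flight and 3 of 20 on the ground. Both seedling means of SULTR1;2 lay below the mean background of the cell arrays (9.57 in flight and 9.89 on the ground). Between flight and ground 0 of the 9 were called in either material, with 0 at an unadjusted p under 0.05 in cells and 2 in seedlings. Of 8 iron starvation genes, 6 have a probe set of their own, and 0 were above background on at least 4 arrays of either cell group. By limma 1 of the 6, FIT, was called higher in flight cells (2.45), beside 32.9% of all probe sets. In ground cells 1 of the 6, FRO3, was called higher (1.59, adjusted p = 0.04997), beside 27.6%. Each was above background on 1 of 6 cell arrays, and the FRO3 call was lost under 15 of 20 alternatives. Between flight and ground 0 of the 6 iron genes were called by limma in either material, with 0 at an unadjusted p under 0.05 in cells and 1 in seedlings.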
